A study of Mus musculus with 27 samples.

Results

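The semaphorins, plexins, neuropilins, Slits, Robos and netrins are the ligands and receptors of axon guidance, and their transcripts were followed here in a marrow stromal cell line treated with parathyroid hormone (PTH) or parathyroid hormone-related protein (PTHrP). All genes were taken whose symbol names a class 3 to 7 semaphorin, a plexin of class A to D, a neuropilin, a Slit, a Robo or a netrin and that had a probe set annotated with that symbol alone. This gave 43 of 18193 genes on the array, with 98 probe sets. Each gene was read from the probe set with the highest mean over all 27 arrays. 41 of the 43 passed a filter on dim genes (log2 intensity of at least 5 on at least 3 arrays). The other two were Robo2, at log2 intensities of 3.29 to 3.71, and Plxna4os1, an antisense transcript that the name pattern also caught, at 4.35 to 4.96.

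Secreted class 3 semaphorins bind a neuropilin, which has no signalling domain of its own, and the neuropilin passes the signal to a plexin of class A. Membrane-bound semaphorins of classes 4 to 7 mostly bind plexins directly, Slits bind Robos, and netrins bind Dcc, neogenin or the Unc5 receptors. Besides steering axons, these pairs act between the cells of bone: Sema3a protects bone mass, Sema4d restrains osteoblasts through Plxnb1, and Slit3 has been linked to bone formation.

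KUSA4b10 is a mouse marrow stromal line with osteoblast potential, and each group consisted of 3 arrays of total RNA. Cells received PTH(1–34) at 10 nM, PTHrP(1–141) at 20 nM, or nothing (untreated control), and were collected after 1, 6 or 24 h, which makes 9 groups. The 2 peptides differ in sequence, length and dose, so these cannot be told apart in a comparison of PTHrP with PTH. Nothing in the labels says whether the replicates were separate cultures, so the p-values reflect the spread of these samples alone, and that spread may be technical.

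Values are given as log2 intensity, and differences between groups as differences of log2 means with their standard error (SE). A gene passed the test where limma's moderated test gave an adjusted p under 0.05, with Benjamini-Hochberg adjustment over all 15711 genes tested. Osteoblast markers were bright in every group: Alpl, Sp7, Ibsp, Col1a1 and Pth1r, the receptor of both peptides, had group means of 8.3 to 14.75. Of the marker lists of other cell types, each with 7 genes on the array, 5 endothelial, 5 blood cell and 6 neuronal and glial markers passed the filter, with group means over the lists of 4.49 to 7.04, 3.99 to 8.09 and 3.27 to 8.36. Among defining markers, Pecam1 and Cdh5 of endothelium lay at 4.95 to 5.4, and Ptprc of blood cells (4.06 to 4.27) and Snap25 of neurons (3.27 to 3.42) did not pass it; the brightest were Csf1r (7.76 to 8.09), Cd14 (7.14 to 7.98) and Tubb3 (6.21 to 8.36). Array medians ran from 83.2 to 91.1 intensity units. Replicate 3 of PTHrP at 1 h stood apart: correlations within that group were as low as 0.983, against at least 0.992 in the other groups.

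At 6 h, 20 of the 41 genes passed the test with PTH and 14 with PTHrP, and all 14 were among the 20, in the same direction. Both comparisons use the same control arrays, so they are not independent, and the same overlap was not counted over all genes. With PTH, 7 genes were higher and 13 lower than in control cells, where 11.4% of all genes tested were higher and 17.9% lower. With PTHrP, 7 were higher and 7 lower, against 8.7% and 12.2% of all genes. As a share, 48.8% of the guidance genes passed with PTH and 34.1% with PTHrP. The median difference was -0.10 with PTH and -0.02 with PTHrP, beside -0.003 and 0.03 for all genes.

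At 1 h few genes passed, among these and among all genes. PTH raised 2 of the 41, or 4.88% (1.44% of all genes were higher, and 0.299% lower). PTHrP raised 3, or 7.32% (1.57% of all genes were higher and 0.248% lower). At 24 h, 4 were higher and 5 lower with PTH, where 5.69% of all genes were higher and 5.96% lower. With PTHrP, 3 were higher and 3 lower at that time, against 3.09% and 3.02% of all genes. In all, 20 of the 41 genes passed in at least 1 of these 6 comparisons on their brightest probe set. The other 21 passed in none, with differences of -0.38 to 0.24 on that probe set. Sema6a, among the 21, did pass with PTH at 6 h on dimmer probe sets, as given below. The 20 are the same genes that passed with PTH at 6 h. The share of all genes that passed in at least 1 of the 6 was not counted.

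**Figure D1:**
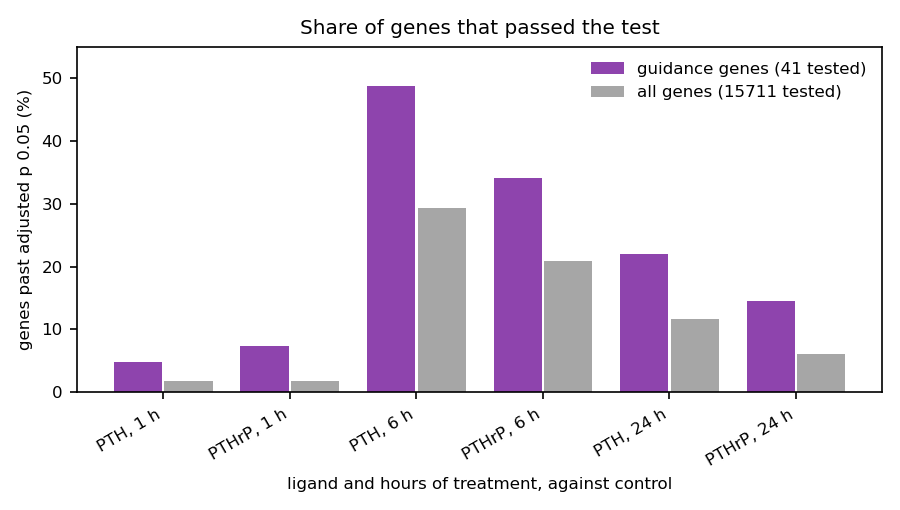
Percent of genes past an adjusted p of 0.05 (vertical axis) in each ligand against control comparison (horizontal axis), for the 41 guidance genes tested (purple bars) and all 15711 genes tested (grey bars). The guidance genes' bar reached 48.8% with PTH at 6 h and 34.1% with PTHrP at 6 h.

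**Figure D2:**
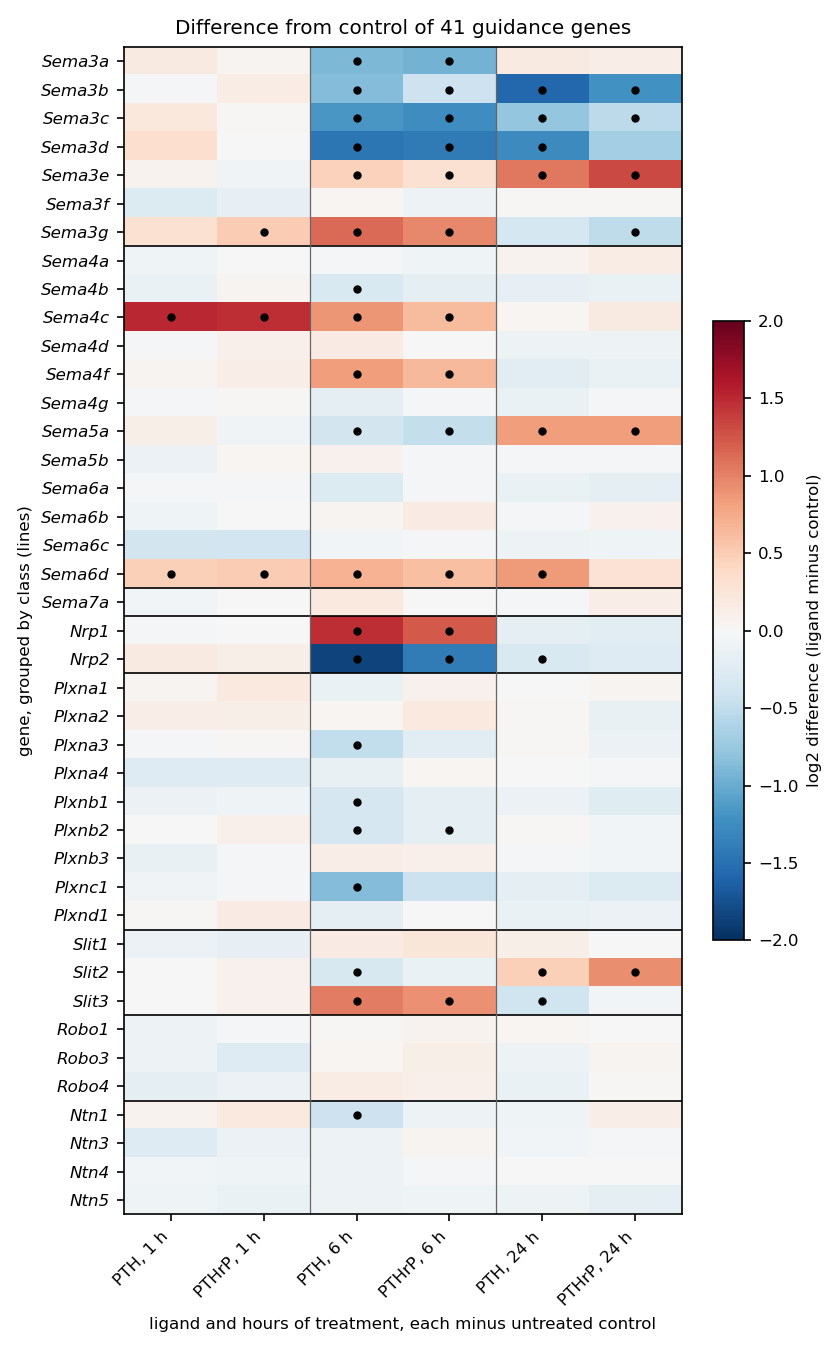
Log2 difference from untreated control (colour, red higher and blue lower) of 41 guidance genes (rows, separated by lines into classes) for PTH and PTHrP at 1, 6 and 24 h (columns). Black dots mark an adjusted p under 0.05; the dots are densest at 6 h and absent from the 3 Robo rows.

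Among the secreted class 3 semaphorins, 6 of 7 passed the test at 6 h with either ligand, 4 lower and 2 higher, and Sema3f was the one that did not. With PTH at that time 11.4% of all genes were higher and 17.9% lower, and with PTHrP 8.7% and 12.2%. Sema3a, the repulsive cue known for protecting bone, had log2 intensities of 8.85, 9.09 and 9.0 with PTH and 9.04, 8.86 and 8.90 with PTHrP at 6 h, against 9.84, 9.92 and 9.89 in control cells. Every treated array lay below every control array. The differences were -0.90 ± 0.15 (adjusted p = 2.635e-05) with PTH and -0.95 ± 0.15 (adjusted p = 2.471e-05) with PTHrP. By 24 h Sema3a read 9.60, 9.42 and 9.42 with PTH and 9.49, 9.24 and 9.57 with PTHrP, against 9.23, 9.30 and 9.37 in control cells, and neither difference passed the test (adjusted p = 0.5522 and 0.7863). In bulk RNA, fewer cells that express a gene and less of its RNA per cell cannot be told apart.

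Sema3c and Sema3d, both ligands of neuropilin receptors in heart and vessel development, also fell at 6 h. Sema3c read 9.75, 10.04 and 9.91 with PTH and 9.81, 9.76 and 9.88 with PTHrP, against 11.21, 10.91 and 11.06 in control cells, which is 2.23-fold (adjusted p = 3.093e-06) and 2.37-fold lower (adjusted p = 2.009e-06). Sema3d read 7.69, 8.40 and 7.98 with PTH and 8.17, 8.17 and 7.82 with PTHrP, against 9.43, 9.45 and 9.53 in control cells, or 2.72-fold and 2.67-fold lower (adjusted p = 7.534e-06 and 1.788e-05). In neither gene did a treated array reach a control array. At 24 h Sema3c was still lower, by a difference of -0.77 ± 0.16 with PTH (adjusted p = 0.001567) and -0.53 ± 0.16 with PTHrP (adjusted p = 0.04947), and the PTHrP call was lost on leaving out any one of 21 of the 27 arrays (adjusted p up to 0.1938). Sema3d at 24 h was -1.27 ± 0.21 with PTH (adjusted p = 0.0001406), and its difference of -0.68 ± 0.21 with PTHrP missed the threshold (adjusted p = 0.05871).

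Sema3b, a neuropilin ligand of osteoblasts that vitamin D is known to induce, went on falling. At 6 h it had 7.28, 7.60 and 7.48 with PTH and 8.12, 7.71 and 7.91 with PTHrP, against 8.19, 8.44 and 8.33 in control cells. At 24 h it had 6.95, 6.95 and 6.71 with PTH and 7.28, 7.37 and 7.06 with PTHrP, against 8.66, 8.25 and 8.42 in control cells. The arrays of treated and control cells did not overlap at either time. Differences with PTH were -0.87 ± 0.13 at 6 h (adjusted p = 1.575e-05) and -1.57 ± 0.13 at 24 h (adjusted p = 7.176e-09). With PTHrP they were -0.41 ± 0.13 (adjusted p = 0.0299) and -1.20 ± 0.13 (adjusted p = 9.034e-07), and the 6 h call was lost without control replicate 2 or 3 or PTHrP replicate 2 or 3 of that time (adjusted p up to 0.1734). The effect of each ligand on Sema3b was larger in size at 24 h than at 6 h, by a change of -0.70 ± 0.19 for PTH (adjusted p = 0.008527) and -0.79 ± 0.19 for PTHrP (adjusted p = 0.006177).

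Sema3e, which signals through Plxnd1 without a neuropilin, moved the other way. Its arrays read 9.04, 8.67 and 9.06 with PTH and 9.37, 9.17 and 9.05 with PTHrP at 24 h, against 7.99, 7.91 and 7.72 in control cells. All treated arrays were above all control arrays, and the gene was 2.07-fold higher with PTH (adjusted p = 2.594e-07) and 2.505-fold higher with PTHrP (adjusted p = 1.375e-08). The rise at 6 h was smaller, at 0.46 ± 0.11 with PTH (adjusted p = 0.002471) and 0.31 ± 0.11 with PTHrP (adjusted p = 0.04902), and the PTHrP call at 6 h was lost on leaving out any one of 19 arrays (adjusted p up to 0.1727). Sema3e lies on mouse chromosome 5 near 3 of the semaphorins that fell: Sema3d and Sema3a have no protein-coding gene between them, 3 such genes separate Sema3a from Sema3e, and 15 separate Sema3e from Sema3c, by RefSeq's order.

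Sema3g, a class 3 ligand that works mainly with Nrp2, rose and then dropped under control. With PTH it read 8.16, 8.25 and 8.18 at 6 h, and with PTHrP 8.12, 7.99 and 7.96, against 7.07, 7.11 and 6.98 in control cells. These were 2.20-fold (adjusted p = 7.633e-08) and 1.96-fold higher (adjusted p = 1.961e-06), with no overlap of arrays. At 24 h it read 6.21, 6.25 and 6.10 with PTH and 5.78, 6.16 and 6.13 with PTHrP, against 6.81, 6.62 and 6.16 in control cells. One control array lay among the treated ones. The difference was -0.34 ± 0.12 with PTH (adjusted p = 0.07636) and -0.51 ± 0.12 with PTHrP (adjusted p = 0.009917), and the PTHrP call was lost without control replicate 1 or 2 or PTHrP replicate 1 at 24 h (adjusted p up to 0.1092). PTHrP had already raised it by 0.505 ± 0.12 at 1 h (adjusted p = 0.02729). That call was lost without control replicate 1 or 3 or PTHrP replicate 1 or 2 of that time (adjusted p up to 0.1569). It was also lost with only the arrays compared, both without a replicate block and with the replicate number as a block (adjusted p = 0.1279 with the block).

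**Figure D3:**
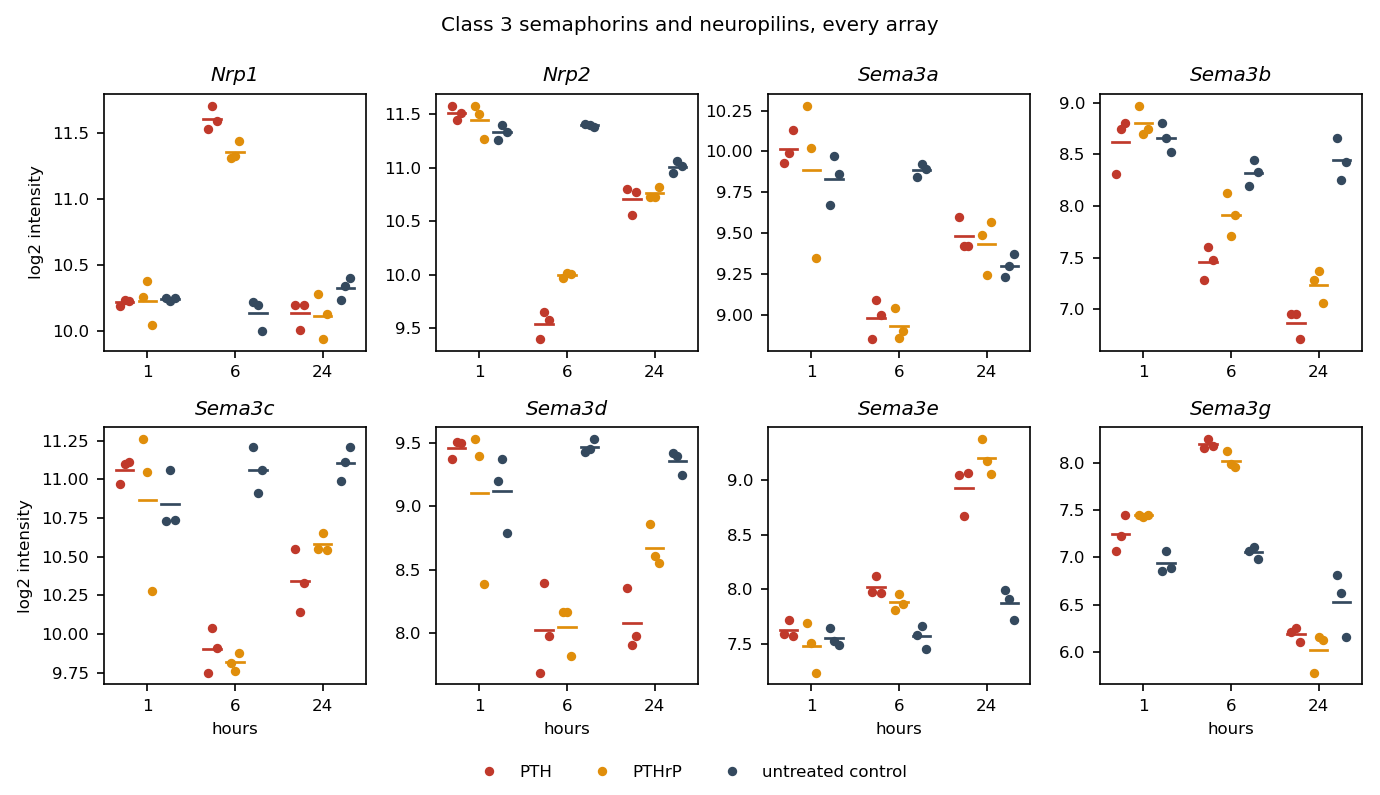
Log2 intensity (vertical axes, scaled per gene) of Nrp1, Nrp2 and 6 class 3 semaphorins on every array against hours of treatment (horizontal axes), with PTH in red, PTHrP in orange and untreated control in dark blue; points are arrays and bars are means of 3. At 6 h the treated arrays of Nrp1 sit above 11.3 and those of Nrp2 between 9.40 and 10.02, with the control arrays of Nrp1 at or below 10.22 and those of Nrp2 at 11.38 or above.

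The 2 neuropilins, the binding partners of these ligands, moved in opposite directions. Nrp1, which favours Sema3a and is also a co-receptor for vascular endothelial growth factor, read 11.53, 11.71 and 11.59 with PTH and 11.31, 11.33 and 11.44 with PTHrP at 6 h, against 10.22, 10.20 and 10.00 in control cells. Nrp2, which favours Sema3f and Sema3g, read 9.40, 9.65 and 9.58 with PTH and 9.97, 10.02 and 10.01 with PTHrP, against 11.41, 11.40 and 11.38 in control cells. Neither gene had a treated array within the range of the control arrays at 6 h. Nrp1 was 2.78-fold higher with PTH (difference 1.47 ± 0.09, adjusted p = 3.394e-12) and 2.33-fold higher with PTHrP (1.22 ± 0.09, adjusted p = 2.354e-10). Nrp2 was 3.61-fold lower with PTH (difference -1.85 ± 0.08, adjusted p = 7.509e-15) and 2.63-fold lower with PTHrP (-1.40 ± 0.08, adjusted p = 2.699e-12), which made the PTH difference of Nrp2 the widest of the 41 genes over the 6 comparisons on their brightest probe sets. All 4 tested probe sets of each neuropilin passed in the same direction with PTH at 6 h.

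At 1 h the brightest probe sets of both neuropilins were near control, with differences between -0.02 and 0.18, and none passed. The dimmest probe set of each gene, looked at after its values were seen, differed from the others at that time. That of Nrp1 (mean 8.58) read 10.17, 10.55 and 10.36 with PTH and 10.53, 10.22 and 8.6 with PTHrP, against 7.65, 8.05 and 8.02 in control cells. Its differences were 2.45 ± 0.27 with PTH (adjusted p = 1.447e-06) and 1.87 ± 0.27 with PTHrP (adjusted p = 9.334e-05), and the low PTHrP array was replicate 3. That of Nrp2 (mean 7.5) read 8.36, 8.72 and 8.43 with PTH and 8.54, 8.37 and 7.35 with PTHrP, against 7.61, 7.51 and 7.66 in control cells, with differences of 0.91 ± 0.20 (adjusted p = 0.009481) and 0.49 ± 0.20 (adjusted p = 0.3617). The 3 brighter probe sets of each gene did not pass at 1 h with either ligand. At 24 h Nrp1 read 10.20, 10.01 and 10.20 with PTH and 10.28, 9.94 and 10.13 with PTHrP, against 10.24, 10.34 and 10.40 in control cells, with adjusted p of 0.206 and 0.2286. Nrp2 at 24 h had -0.30 ± 0.08 with PTH (adjusted p = 0.01206), a call lost without control replicate 2 or PTH replicate 2 of that time (adjusted p up to 0.08934), and -0.25 ± 0.08 with PTHrP (adjusted p = 0.06577).

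Promoter sequence from RefSeq (GRCm38.p6, 250 bases before to 50 after an annotated start of a gene) was available for 35 of the members, 48 promoters in all. PTH receptor signalling raises cyclic AMP, whose response element is read by CREB-family factors, so the full element TGACGTCA and its core TGACG were searched on both strands; a full element also counts as a TGACG site. The full element was in 1.79% of all 32851 promoters and in 0 of the members' promoters. The TGACG site was in 20.8% of all promoters and in 3 of the 48 members' promoters, those of Sema3d, Sema5a and Sema7a. Of the members called in a ligand comparison, 18 had a promoter and 2 of them a TGACG site; of the tested members not called, 16 had one and 1 a TGACG site. The 4 promoters shown are those of the neuropilins, because the genes moved in opposite directions, and those of Sema3d and Sema5a, because they hold the TGACG site (in capitals), which starts 84 bases before the start of Sema3d and at base 29 after that of Sema5a. All 4 lie on the plus strand, at chr8:128358823-128359122 (Nrp1), chr1:62703067-62703366 (Nrp2), chr5:12382916-12383215 (Sema3d) and chr15:32244563-32244862 (Sema5a). The Nrp1 window begins downstream of the first base of that gene in RefSeq (128358591), so the bases before that position were not searched. Their GC content was 64.0%, 70.7%, 49.7% and 71.3%, beside a median of 52.7% over all promoters. A match is a description of the sequence, and no match says only that the letters are not in this window.
Nrp1: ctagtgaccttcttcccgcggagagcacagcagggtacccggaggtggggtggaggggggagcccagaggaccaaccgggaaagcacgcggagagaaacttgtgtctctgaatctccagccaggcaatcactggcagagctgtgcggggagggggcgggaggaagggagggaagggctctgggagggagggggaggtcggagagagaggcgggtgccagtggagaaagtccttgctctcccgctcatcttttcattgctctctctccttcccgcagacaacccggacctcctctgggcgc
Nrp2: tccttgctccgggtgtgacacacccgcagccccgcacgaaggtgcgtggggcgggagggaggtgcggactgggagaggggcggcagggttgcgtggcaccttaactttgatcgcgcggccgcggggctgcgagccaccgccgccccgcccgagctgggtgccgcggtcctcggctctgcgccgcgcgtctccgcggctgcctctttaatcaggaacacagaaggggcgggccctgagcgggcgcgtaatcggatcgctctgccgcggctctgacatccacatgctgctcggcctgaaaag
Sema3d: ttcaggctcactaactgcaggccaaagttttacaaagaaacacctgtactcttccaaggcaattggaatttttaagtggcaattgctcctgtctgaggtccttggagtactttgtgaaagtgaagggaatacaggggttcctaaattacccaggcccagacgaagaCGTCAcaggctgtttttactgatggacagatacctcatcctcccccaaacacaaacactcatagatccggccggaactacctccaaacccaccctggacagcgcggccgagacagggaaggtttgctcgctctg
Sema5a: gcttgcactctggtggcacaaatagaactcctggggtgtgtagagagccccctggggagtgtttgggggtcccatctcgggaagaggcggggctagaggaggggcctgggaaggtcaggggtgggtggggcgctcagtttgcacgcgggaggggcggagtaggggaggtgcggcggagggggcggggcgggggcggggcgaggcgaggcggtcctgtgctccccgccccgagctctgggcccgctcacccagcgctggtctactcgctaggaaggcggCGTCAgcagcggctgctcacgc

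Sema4c, a transmembrane semaphorin that binds Plxnb2, had the largest differences at 1 h among the genes' brightest probe sets. It read 8.74, 9.21 and 9.10 with PTH and 9.26, 9.18 and 8.55 with PTHrP, against 7.66, 7.36 and 7.53 in control cells. All treated arrays were above all control arrays, the PTHrP array at 8.55 being replicate 3. The gene was 2.83-fold higher with PTH (difference 1.501 ± 0.15, adjusted p = 1.488e-07) and 2.79-fold higher with PTHrP (1.48 ± 0.15, adjusted p = 2.076e-07); without replicate 3 the PTHrP difference was 1.71 (adjusted p = 1.094e-09). At 6 h the differences were 0.88 ± 0.15 (adjusted p = 4.668e-05) and 0.64 ± 0.15 (adjusted p = 0.002376), and at 24 h 0.04 ± 0.15 and 0.18 ± 0.15, neither past the threshold (adjusted p = 0.9335 and 0.6821). The effect shrank between 1 and 6 h, by a change of -0.62 ± 0.21 for PTH (adjusted p = 0.03769) and -0.84 ± 0.21 for PTHrP (adjusted p = 0.008109). The PTH change was lost on leaving out any one of 8 arrays (adjusted p up to 0.1086).

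Sema6d, a ligand of Plxna1 with roles in heart development and osteoclasts, was the other transmembrane semaphorin raised at 1 h on its brightest probe set. It read 8.22, 8.61 and 8.43 with PTH and 8.52, 8.35 and 8.43 with PTHrP, against 8.07, 7.77 and 7.96 in control cells, with no overlap. The differences were 0.48 ± 0.12 (adjusted p = 0.03636) and 0.50 ± 0.12 (adjusted p = 0.02574). At 1 h these calls were less stable than that of Sema4c. The PTH call was lost without control replicate 2 or 3 or PTH replicate 2 or 3 (adjusted p up to 0.3106), and the PTHrP call without control replicate 2 or 3 or PTHrP replicate 1 (adjusted p up to 0.2133). The PTHrP call was also lost with only the arrays compared, both without a replicate block and with the replicate number as a block (adjusted p = 0.1053 with the block). With the mean over its 4 probe sets, the 1 h differences were 0.06 with PTH (adjusted p = 0.8574) and 0.077 with PTHrP (adjusted p = 0.8404), and both calls were lost. At 6 h the differences were 0.70 ± 0.12 (adjusted p = 6.994e-05) and 0.60 ± 0.12 (adjusted p = 0.0006078). At 24 h Sema6d read 9.30, 9.05 and 9.34 with PTH and 8.47, 8.79 and 8.73 with PTHrP, against 8.33, 8.49 and 8.33 in control cells. Only PTH passed there, with 0.85 ± 0.12 (adjusted p = 2.056e-05), and the PTHrP arrays overlapped those of control cells (0.28 ± 0.12, adjusted p = 0.2346).

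The 1 h results with PTHrP depended on how the arrays were treated. Same-numbered PTHrP and control arrays deviated together at that time, so the replicate number was also fitted as a block to those 6 arrays: Sema4c kept an adjusted p of 0.01589, and Sema6d and Sema3g had 0.1053 and 0.1279, which left 1 call in place of 3. Sema6d and Sema3g were also lost with only the arrays compared and no block. Without PTHrP replicate 3 there were 6 calls, 4 higher and 2 lower. Leaving out control replicate 3 or PTHrP replicate 1 gave 1 call. With PTH at 1 h, 1 call was left without control replicate 2 or 3 or PTH replicate 2 or 3.

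Sema5a, a transmembrane semaphorin with thrombospondin repeats, changed direction between 6 and 24 h. At 6 h it read 8.69, 8.66 and 8.99 with PTH and 8.80, 8.63 and 8.61 with PTHrP, against 9.15, 9.16 and 9.15 in control cells. At 24 h it read 10.82, 10.39 and 10.75 with PTH and 10.77, 10.30 and 10.86 with PTHrP, against 9.94, 9.69 and 9.80 in control cells. Treated arrays were all below control at 6 h and all above it at 24 h. The 6 h differences were -0.37 ± 0.13 (adjusted p = 0.03333) and -0.47 ± 0.13 (adjusted p = 0.01007), and the 24 h differences 0.84 ± 0.13 (adjusted p = 6.126e-05) and 0.83 ± 0.13 (adjusted p = 0.0001027). The change between the times was 1.21 ± 0.19 for PTH (adjusted p = 3.078e-05) and 1.31 ± 0.19 for PTHrP (adjusted p = 2.963e-05). The 6 h PTH call was lost without any one of control replicates 1, 2 and 3 and PTH replicates 1 and 2 (adjusted p up to 0.131), and both 6 h calls were lost with the mean over the gene's probe sets (adjusted p = 0.2802 and 0.1631).

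Of the 12 tested semaphorins of classes 4 to 6, PTH raised 3 and lowered 2 at 6 h, and PTHrP raised 3 and lowered 1, where 11.4% of all genes were higher and 17.9% lower with PTH and 8.7% and 12.2% with PTHrP. Besides Sema4c and Sema6d, the third gene that rose was Sema4f, singled out after its values were seen, with 8.35, 7.93 and 7.94 under PTH and 7.98, 7.86 and 7.79 under PTHrP, against 7.26, 7.26 and 7.18 in control cells. Its differences were 0.84 ± 0.11 (adjusted p = 1.998e-06) and 0.64 ± 0.11 (adjusted p = 0.0001241). Sema4d, the Plxnb1 ligand that osteoclasts use to restrain osteoblasts, stayed between 6.52 and 7.05 on all arrays and passed in no comparison (adjusted p of at least 0.2578 against control). Sema7a, the membrane-anchored semaphorin of class 7, passed in none of the 6 ligand comparisons, with adjusted p of at least 0.2159.

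**Figure D4:**
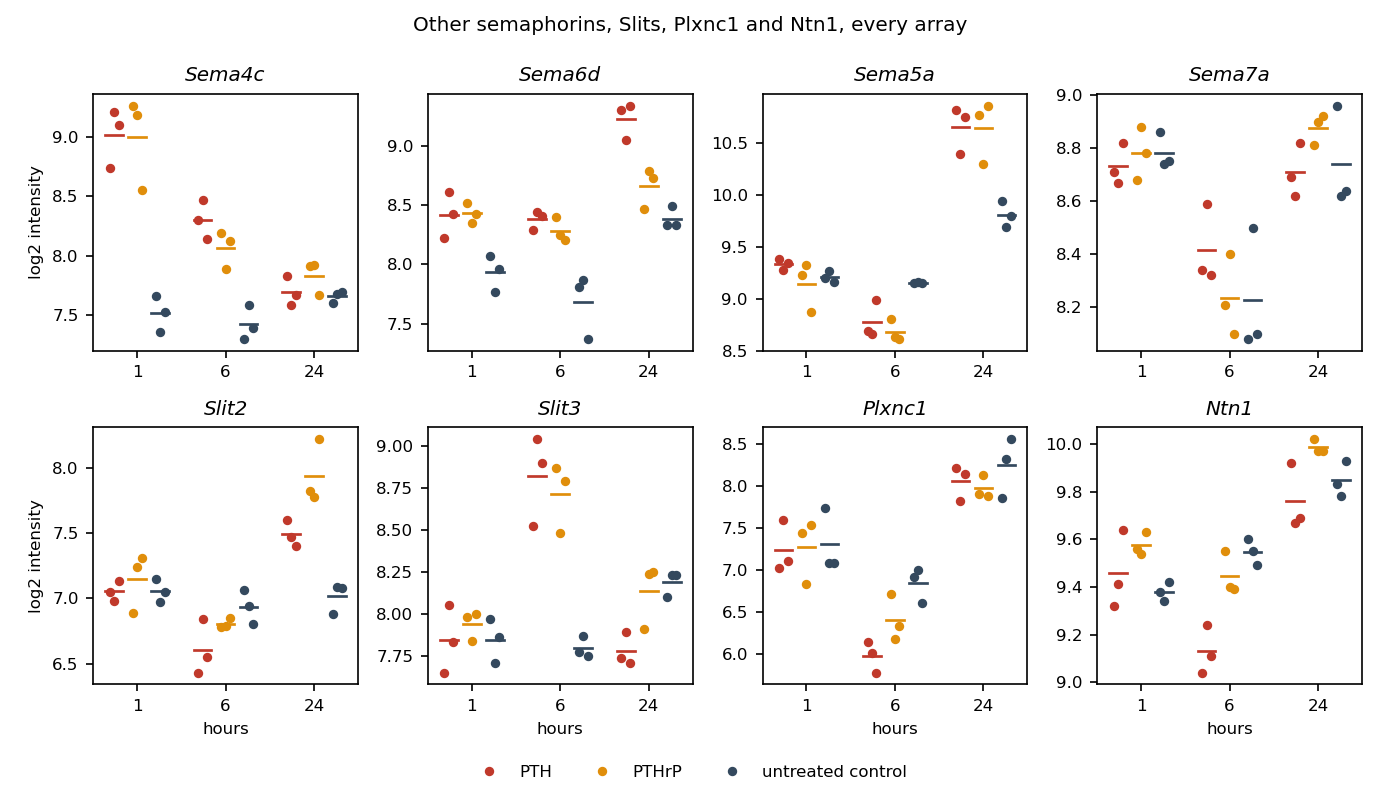
Log2 intensity (vertical axes, scaled per gene) of 4 further semaphorins, Slit2, Slit3, Plxnc1 and Ntn1 on every array against hours of treatment (horizontal axes), with PTH in red, PTHrP in orange and untreated control in dark blue; points are arrays and bars are means of 3. Sema4c is highest at 1 h with either ligand, Slit3 at 6 h, and Sema5a and Slit2 at 24 h.

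Among the plexins, the signalling receptors, PTH lowered 4 of 9 at 6 h on their brightest probe sets, where 17.9% of all genes were lower. PTHrP lowered 1 on those probe sets, where 12.2% of all genes were lower, and none passed as higher. Plxnc1, the receptor of Sema7a, had 6.15, 6.01 and 5.78 with PTH and 6.72, 6.18 and 6.33 with PTHrP at 6 h, against 6.92, 7.0 and 6.61 in control cells. The PTH arrays lay below control and the PTHrP arrays overlapped it, with differences of -0.865 ± 0.21 (adjusted p = 0.002115) and -0.43 ± 0.21 (adjusted p = 0.156). Plxnb2, the Sema4c receptor, read 10.22, 10.23 and 10.30 with PTH and 10.45, 10.35 and 10.41 with PTHrP, against 10.55, 10.61 and 10.58 in control cells. All treated arrays were lower, with differences of -0.33 ± 0.06 (adjusted p = 0.0001666) and -0.18 ± 0.06 (adjusted p = 0.03946), and the PTHrP call was lost without any one of control replicates 1, 2 and 3 and PTHrP replicates 2 and 3 (adjusted p up to 0.1415).

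Plxnb1, the Sema4d receptor of osteoblasts, read 9.08, 8.94 and 8.54 with PTH and 8.95, 9.04 and 8.96 with PTHrP, against 9.07, 9.30 and 9.18 in control cells. One PTH array reached the control range. The PTH difference of -0.33 ± 0.12 (adjusted p = 0.03322) was lost without control replicate 2 or 3 or PTH replicate 3 (adjusted p up to 0.296). With the mean over the gene's probe sets the PTH difference was -1.016 (adjusted p = 2.636e-10). The dimmer probe set of Plxnb1 was lower with both ligands, as given below. Plxna1 and Plxna2, class A partners of the neuropilins, stayed within -0.15 to 0.20 of control in all 6 comparisons, and none passed (adjusted p of at least 0.1248). With the neuropilins the co-receptors moved, and of the 4 class A plexins tested Plxna3 alone passed, with PTH at 6 h (-0.49 ± 0.08, adjusted p = 5.703e-05).

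The Slits, secreted ligands of the Robos, were 3 genes, of which 2 passed in at least 1 of the 6 ligand comparisons. The share of all genes that did so was not counted. Slit3, the Slit linked to bone formation, read 8.52, 9.04 and 8.90 with PTH and 8.87, 8.48 and 8.79 with PTHrP at 6 h, against 7.77, 7.87 and 7.75 in control cells. No treated array reached the control range, and Slit3 was 2.03-fold (adjusted p = 4.771e-07) and 1.89-fold higher (adjusted p = 4.805e-06). At 24 h it read 7.74, 7.89 and 7.71 with PTH and 7.91, 8.24 and 8.25 with PTHrP, against 8.10, 8.23 and 8.23 in control cells. PTH was then lower, with a difference of -0.405 ± 0.12 (adjusted p = 0.03299), a call lost without control replicate 2 or 3 or PTH replicate 1 or 3 (adjusted p up to 0.1115), and PTHrP overlapped control.

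Slit2 was higher at 24 h, with 7.60, 7.47 and 7.40 under PTH and 7.82, 7.78 and 8.22 under PTHrP, against 6.88, 7.09 and 7.08 in control cells. The arrays did not overlap. The differences were 0.47 ± 0.12 with PTH (adjusted p = 0.008255; 0.05588 without control replicate 1) and 0.92 ± 0.12 with PTHrP (adjusted p = 6.129e-06). At 6 h it had been lower with PTH, with a difference of -0.32 ± 0.12 (adjusted p = 0.0399), with overlapping arrays, and the call was lost without control replicate 1 or 2 or PTH replicate 1 or 3 (adjusted p up to 0.2037). Robo1, the main Slit receptor, was dim at 5.42 to 5.94 on all arrays, and none of the 3 tested Robos passed in any comparison.

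Of the 4 netrins, Ntn1, the ligand of Dcc, neogenin and the Unc5 receptors, alone passed against control. It was lower with PTH at 6 h, where 17.9% of all genes were lower. At 6 h it read 9.04, 9.24 and 9.11 with PTH and 9.55, 9.40 and 9.39 with PTHrP, against 9.60, 9.55 and 9.49 in control cells. The PTH arrays were lower than all others of that time. PTH differed from control by -0.41 ± 0.08 (adjusted p = 0.0002937) and PTHrP by -0.10 ± 0.08 (adjusted p = 0.4404), with no call for either at 1 or 24 h.

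PTHrP was next set against PTH directly at each time. At 1 h no member passed in limma's test (0 at an unadjusted p under 0.05 also), no gene of all tested passed (0%), and the differences ran from -0.35 to 0.19. At 6 h, 5 of the 41 passed, all higher with PTHrP, where 7.62% of all genes passed in either direction. Nrp2 was higher with PTHrP by 0.46 ± 0.08 (adjusted p = 0.0007943), without overlap, Sema3b by 0.46 ± 0.13 (adjusted p = 0.03724) and Ntn1 by 0.315 ± 0.08 (adjusted p = 0.01831). In these 3 genes PTH had lowered the level, and the PTHrP mean lay between those of PTH and control cells. The others were Plxna1 and Plxna3, with 0.22 ± 0.07 and 0.28 ± 0.08 (adjusted p = 0.03937 and 0.04287). Plxna3 had the same order of means, at 8.01 with PTH, 8.29 with PTHrP and 8.50 in control cells. The PTHrP mean of Plxna1 was above control (9.17 against 9.09). The calls of Sema3b, Ntn1 and Plxna1 were lost with the mean over each gene's probe sets (adjusted p = 0.1256, 0.3075 and 0.08315). The arrays of Plxna3 overlapped between the ligands. Its call was lost under 4 other settings and on leaving out any one of 9 arrays (adjusted p up to 0.2242). Nrp1 with PTHrP was -0.25 ± 0.09 from PTH and did not pass (adjusted p = 0.09391).

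At 24 h, 1 member passed between the ligands, against 1.16% of all genes. It was Sema6d, lower with PTHrP, with a difference of -0.56 ± 0.12 (adjusted p = 0.01655) with no overlap, and the call was lost without PTH replicate 1 or 3 or PTHrP replicate 1 or 3 of that time (adjusted p up to 0.1225) or with the mean over its probe sets (adjusted p = 0.1141). Slit2 was 0.455 ± 0.12 higher with PTHrP and missed the threshold (adjusted p = 0.05944). The call of Nrp2 at 6 h held with each array left out. The count of 5 fell to 1 without PTH replicate 3 or PTHrP replicate 1, to 2 without PTH replicate 1, and to 3 without PTH replicate 2 or PTHrP replicate 3. The 24 h count of 1 became 0 without PTH replicate 1 or 3 or PTHrP replicate 1 or 3, 2 without PTHrP replicate 2, PTH 6 h replicate 2 or PTHrP 1 h replicate 1, and 3 without PTHrP 1 h replicate 3.

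The effect of a ligand changed with time for many of these genes. Between 1 and 6 h the effect of PTH changed for 13 of the 41 (18.5% of all genes) and that of PTHrP for 9 (12.2%). Between 6 and 24 h it changed for 14 with PTH (20.4%) and 11 with PTHrP (12.1%). With PTH, 9 genes passed at both 6 and 24 h; 6 kept their direction, and Sema5a, Slit2 and Slit3 had opposite signs at these times. With PTHrP, 5 passed at both times, of which Sema5a and Sema3g had opposite signs. The PTH calls of Sema5a at 6 h, Slit2 at both times and Slit3 at 24 h were each lost without certain single arrays. So was the PTHrP call of Sema3g at 24 h. Both 6 h calls of Sema5a were lost with the mean over its probe sets. The changes from 1 to 6 h and from 6 to 24 h share the 6 h arrays.

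Untreated cells changed over the 24 h as well. Compared with 1 h, 6 guidance genes were higher and 4 lower at 24 h, where 11.6% of all genes were higher and 11.5% lower. Plxnc1 rose most, with 7.86, 8.32 and 8.56 at 24 h against 7.74, 7.09 and 7.09 at 1 h (0.94 ± 0.21, adjusted p = 0.001468). Sema5a rose as well, with 9.94, 9.69 and 9.80 at 24 h against 9.20, 9.27 and 9.16 at 1 h (0.60 ± 0.13, adjusted p = 0.001221). No array of the later time overlapped the earlier time in either gene. Sema3a was lower at 24 h, with 9.23, 9.30 and 9.37 against 9.67, 9.97 and 9.86 (-0.53 ± 0.15, adjusted p = 0.008467). Sema4g, a class 4 semaphorin that passed in no ligand comparison, was lower too, with 6.48, 6.42 and 6.61 against 7.01, 7.03 and 6.90 (-0.48 ± 0.10, adjusted p = 0.0007113). At 6 h against 1 h the single call was Sema7a, lower with 8.08, 8.50 and 8.10 against 8.86, 8.74 and 8.75 (-0.56 ± 0.11, adjusted p = 0.004149), where 0.719% of all genes were higher and 1.55% lower. With the mean over probe sets the Sema7a call was lost (adjusted p = 0.05098), and the 24 h changes of Plxnc1 and Sema5a were 0.61 and 0.38, both past the threshold.

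Other genes of the pathway were counted at the same times, where with PTH at 6 h 11.4% of all genes were higher and 17.9% lower, and with PTHrP 8.7% and 12.2%. Of 23 tested receptors and co-receptors for netrins, repulsive guidance molecules and related cues, 2 were higher and 6 lower with PTH at 6 h (median difference 0.02), and 2 were higher and 2 lower with PTHrP. Unc5b, a netrin receptor, was lower, with differences of -0.775 ± 0.10 with PTH (adjusted p = 6.904e-07) and -0.415 ± 0.10 with PTHrP (adjusted p = 0.002496), and Neo1, which encodes neogenin, differed by -0.51 ± 0.09 with PTH (adjusted p = 0.0001058). Of 34 tested intracellular mediators, 3 were higher and 14 lower with PTH at 6 h (median -0.12), and 2 were higher and 8 lower with PTHrP. Srgap1, a GTPase-activating protein of the Slit-Robo pathway, was 2.23-fold lower with PTH (adjusted p = 1.662e-07) and 2.59-fold lower with PTHrP (adjusted p = 1.893e-08), and Srgap2 and Srgap3 fell with both ligands too. Unc5b, Neo1 and the Srgap genes were singled out after their values were seen, and all are lowered genes. The 2 receptors and 3 mediators that were higher with PTH at 6 h are not named, so the genes named do not stand for their lists. At 24 h, 1 mediator was higher and 6 lower with PTH, and 1 was higher and 4 lower with PTHrP, against 5.69% higher and 5.96% lower of all genes with PTH and 3.09% and 3.02% with PTHrP.

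Osteoblast markers moved at the same times. At 6 h, 3 of the 5 measured were lower with each ligand, against 17.9% of all genes with PTH and 12.2% with PTHrP. At 24 h 5 were lower with PTH and 4 with PTHrP, against 5.96% and 3.02% of all genes. Runx2, Bglap and Bglap2, also on the marker list, had no probe set annotated with that symbol alone. The summed intensity of the 5 measured markers at 24 h was 17320 to 18870 with PTH and 21660 to 27790 with PTHrP, against 35700 to 36420 in control cells. The difference between 3′ and 5′ probe sets of Actb, a sign of RNA quality, was 0.327 to 0.345 log2 units with PTH and 0.271 to 0.355 with PTHrP at 6 h, against 0.227 to 0.308 in control cells, and 0.411 to 0.428 and 0.432 to 0.453 at 24 h, against 0.362 to 0.386. For Gapdh the mean of this difference was -0.165 with PTH and -0.146 with PTHrP at 6 h, against -0.198 in control cells. At 24 h it was -0.214 with PTH, -0.222 with PTHrP and -0.211 in control cells. Summed endothelial markers at 6 h were 319 to 359.4 with PTH and 356.6 to 388.9 with PTHrP, against 319.5 to 334 in control cells, and none of the 5 tested passed. Of 5 tested blood cell markers, Cd68 was higher with PTH at 6 h, and summed levels were 659.1 to 768.7 with PTH and 677.9 to 742 with PTHrP, against 648.6 to 666.2. Of 6 tested neuronal and glial markers, Tubb3 was lower with both ligands at 24 h, and summed levels were 479.1 to 550.5 with PTH and 504.2 to 526.4 with PTHrP, against 567.1 to 642.2. The part of these shifts in the guidance genes' results was not tested.

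With PTH at 6 h, 27 members had more than 1 tested probe set, and the sets of 16 all had the same sign and those of 11 did not. The brightest passed for 15, and for 12 of these another passed too. Among these 15, Plxnc1, Sema4b, Sema5a and Sema6d had sets of both signs. Of the 4 sets of Sema6d, the brightest passed (0.70), and the others, at 0.245, 0.19 and -0.01, did not. Sema4b was the one whose probe sets passed in opposite directions, at -0.30 ± 0.11 (adjusted p = 0.0455 with all probe sets tested) and 0.36 ± 0.12 (adjusted p = 0.02794) on its 2 probe sets. Some dimmer probe sets moved much more than the brightest. The second probe set of Plxnb1, with a mean of 6.56, was lower, with differences of -1.70 ± 0.12 with PTH (adjusted p = 3.822e-11) and -1.20 ± 0.12 with PTHrP (adjusted p = 3.509e-08). That of Sema4f, with a mean of 5.16, was higher by 2.76 ± 0.20 (adjusted p = 9.322e-11) and 2.17 ± 0.20 (adjusted p = 1.402e-08). Sema6a did not pass on its brightest probe set (-0.27 ± 0.11, adjusted p = 0.06709) but did on the others with PTH, at -1.27 ± 0.15 (adjusted p = 2.407e-07) and -0.555 ± 0.14 (adjusted p = 0.00423). At 1 h that dimmer set of Sema4f also passed, with 5.17, 5.53 and 5.67 with PTH and 5.99, 5.05 and 4.87 with PTHrP, against 4.42, 4.21 and 4.38 in control cells, or 1.12 ± 0.20 (adjusted p = 0.001266) and 0.97 ± 0.20 (adjusted p = 0.006682). These genes were looked at after their values were seen. Taking the mean over a gene's probe sets moved several called 6 h PTH differences by over 1.5 times, to -0.41 for Plxnc1, -0.51 for Sema3b, -0.26 for Ntn1, -0.165 for Slit2, 0.28 for Sema6d, -1.02 for Plxnb1 and 1.80 for Sema4f, all still past the threshold (adjusted p up to 0.04752). At 24 h it moved Slit2 to 0.24 with PTH and 0.41 with PTHrP, Sema3b to -1.04 with PTH and Sema6d to 0.37 with PTH, also past it.

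**Figure D5:**
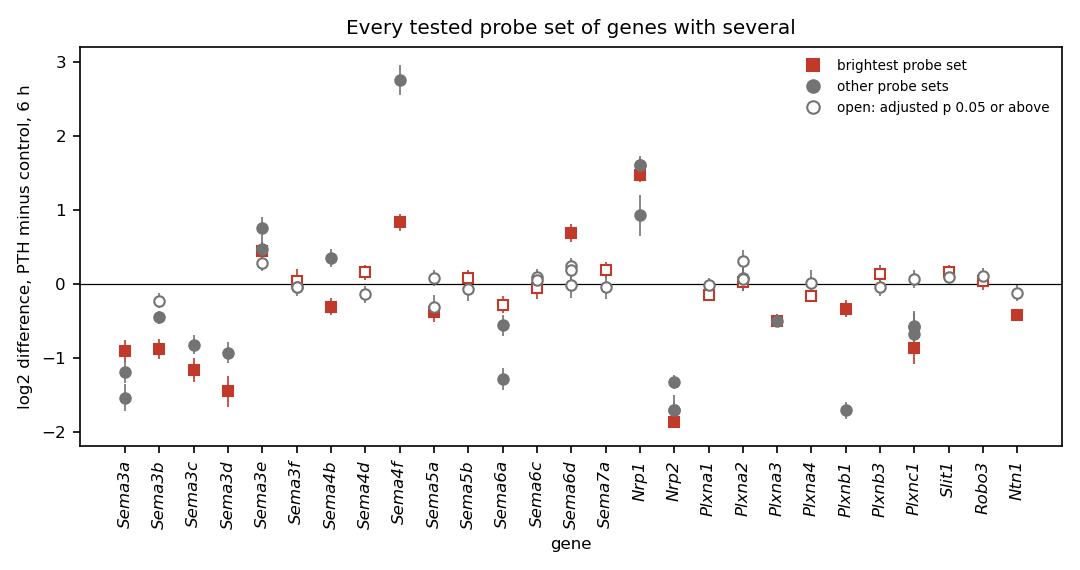
Log2 difference of PTH minus control at 6 h (vertical axis; bars are SE) for every tested probe set of the 27 members with several (horizontal axis). Red squares are the brightest probe set of a gene, grey circles the others, and open symbols have an adjusted p of 0.05 or above; the dimmer sets of Plxnb1 (-1.70), Sema4f (2.76) and Sema6a (-1.27) lie far from the brightest ones.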

How the data were processed

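The members and gene lists were chosen with earlier results of these data known. Affymetrix arrays of KUSA4b10 RNA were read as the intensity values that the authors deposited, on a linear scale; per the submitters' processing notes the tool was RMA. Its version and settings were not given in the sources used, and the values were normalized again for the deposit, so they can differ from those published. Here log2 was taken of 45101 probe sets, and 34958 with 1 gene symbol in the platform annotation were kept, 1 per gene. The means of 9 groups were fitted over 27 arrays with limma 3.58.1 in R 4.3.3 (lmFit, contrasts, eBayes; 18 residual degrees of freedom), and 15 contrasts were adjusted over 15711 genes by Benjamini-Hochberg. The fit was tested on simulated data. The smallest p of an exact 3 against 3 permutation is 0.1, so single-gene permutation tests were not used. Named genes were the 12 members with the largest differences from control, 4 from untreated cells, 3 from PTHrP against PTH, each past the test with arrays not overlapping, and 14 with known roles in bone. Same-numbered arrays of PTHrP and control cells at 1 h correlated in their deviations (0.188, 0.266 and 0.449), so that comparison is given with a replicate block too; the other pairs of groups did not meet this rule. The number of arrays limits the precision. Other filters, normalizations, probe set rules, array weights, the replicate block and leaving out each array were tried as alternatives.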

Additional observations from a re-analysis of the deposited data

Results flagged for a closer look

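The values below are changes in a ligand's log2 difference from control between 2 times, each past limma's adjusted p of 0.05 over all genes, with the later time minus the earlier. Between 1 and 6 h the PTH effect of Nrp1 changed by 1.496, that of Slit3 by 1.03, that of Sema3g by 0.828 and that of Sema4f by 0.785. Changes below 0 over the same interval were those of Nrp2 (-2.033), Sema3d (-1.784), Sema3c (-1.378), Sema3a (-1.087), Sema3b (-0.824), Sema4c (-0.624), Ntn1 (-0.491), Plxna3 (-0.472) and Plxnb2 (-0.317). With PTHrP from 1 to 6 h, Nrp1 changed by 1.237, Slit3 by 0.825 and Sema4f by 0.505, and below 0 were Nrp2 (-1.519), Sema3d (-1.402), Sema3c (-1.267), Sema3a (-1.0), Sema4c (-0.843) and Plxnb2 (-0.284). With the mean over a gene's probe sets the Nrp1 changes were 0.834 with PTH (adjusted p = 0.001729) and 0.639 with PTHrP (adjusted p = 0.02071); its dimmest probe set was already higher at 1 h. That mean gave 1.213 and 0.854 for Sema4f and -0.458 for Sema3b with PTH. Without PTHrP replicate 3 at 1 h, the PTHrP changes of Sema3a, Sema3c, Sema3d and Sema4c were -1.266, -1.558, -1.763 and -1.068.

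From 6 to 24 h several of these turned back. With PTH, Nrp2 changed by 1.549, Sema5a by 1.212, Sema3a by 1.082, Slit2 by 0.792, Sema3e by 0.593, Plxna3 by 0.518, Plxnb2 by 0.349 and Ntn1 by 0.33. Below 0 were Nrp1 (-1.665), Sema3g (-1.484), Slit3 (-1.43), Sema4f (-1.072), Sema4c (-0.838) and Sema3b (-0.704). With PTHrP, Sema5a changed by 1.307, Nrp2 by 1.145, Sema3a by 1.083, Slit2 by 1.05, Sema3e by 1.013 and Sema3c by 0.721, and below 0 were Sema3g (-1.479), Nrp1 (-1.434), Slit3 (-0.969), Sema3b (-0.793) and Sema4f (-0.768). With the mean over probe sets, Sema4f changed by -1.769 with PTH and -1.437 with PTHrP and Slit2 by 0.406 and 0.499, while Ntn1 with PTH (0.151, adjusted p = 0.3583) and Sema3c with PTHrP (0.574, adjusted p = 0.05185) missed the threshold. Changes lost on leaving out 1 array were those of Ntn1 with PTH from 6 to 24 h (any one of 13 arrays, adjusted p up to 0.1434), Sema3c with PTHrP from 6 to 24 h (10 arrays, 0.1023), Plxnb2 with PTHrP (8 arrays, 0.1067), Sema4f with PTHrP from 1 to 6 h (8 arrays, 0.1251) and Sema4c with PTH from 1 to 6 h (8 arrays, 0.1086).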

How the results depend on the processing

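Of 118 combinations of a member and a comparison past the threshold, 91 stayed past it under every other setting, 89 with each array left out in turn, and 85 throughout. One reversed: Sema4b with PTH at 6 h was 0.028 (adjusted p = 0.8759) with the mean over its probe sets, which moved in opposite directions. Counts of members past the threshold moved by over 1.5 times as follows. PTH at 1 h gave 5 with every probe set tested, 1 after repeated quantile normalization, 4 with array weights and 1 with a replicate block, against 2. PTHrP at 1 h gave 5 with every probe set tested, 1 with only the arrays compared, 6 with array weights and 1 with the replicate block in its own 6 arrays (chosen after seeing the data), against 3. PTHrP gave 22 at 6 h and 10 at 24 h with array weights, against 14 and 6. PTHrP against PTH at 6 h gave 3 with no filter, 3 with mean probe sets, 1 with only the arrays compared, 13 with array weights and 3 with the replicate block, against 5. At 24 h it gave 0 with mean probe sets, 2 with cyclic loess, 2 with log2 of the value plus 16, 0 with only the arrays compared and 6 with array weights, against 1. The change of the PTHrP effect from 1 to 6 h gave 15 with mean probe sets and 18 with array weights, against 9, and untreated cells at 6 h gave 0 with mean probe sets, against 1. Each array left out in turn gave 1 to 2 for PTH at 1 h, 1 to 6 for PTHrP at 1 h, 1 to 5 for PTHrP against PTH at 6 h and 0 to 3 at 24 h. With PTH and PTHrP at 6 h the counts were 17 to 21 and 11 to 15, and at 24 h 7 to 9 and 4 to 8. The replicate block changed no other count by over 1.5 times; outside PTHrP and control at 1 h the arrays share only a number. The cause of these shifts was not tested. Ligand, dose and peptide length cannot be told apart, and dim genes such as the Robos have little signal over background.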
